A study of Mus musculus with 3 samples.

Results

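The transcription factor AP-1 is described here through 8 genes, Fos, Fosb, Fosl2, Jun, Junb, Jund, Atf3 and Batf, in mouse CD8 T cells. Every probe set whose platform annotation names one of these genes alone was taken, with older symbols matched by Entrez identifier. All 8 genes were found, with 11 probe sets of the 45101 on the array and among 18194 named genes. Fosl2, Jun and Jund had 2 probe sets each and the other 5 genes had 1.

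The study hybridised 3 one-colour arrays, 1 for each of 3 populations of CD8 T cells taken from MLN, the mesenteric lymph node. Cells of all 3 groups carry the CL4 T cell receptor, a transgene that makes CD8 T cells recognise the influenza hemagglutinin (HA). In the VILLIN-HA/CL4-TCR group, and likewise in the Villin-HA + CL4-TCR group, this receptor is combined with HA under the villin promoter, which is active in the gut epithelium, and the CL4-TCR group has the receptor without the antigen. The design names ordinary, activated and regulatory CD8 populations, but the labels of the samples leave unsaid which HA group is which. In the study as known apart from its labels, the suppressive cells came from mice with both transgenes. The sources used here give no strain, age, sex or number of animals.

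AP-1 is a family of basic leucine zipper proteins that bind DNA as pairs. Fos proteins cannot pair with themselves and need a Jun partner, whereas Jun proteins can also pair with each other. Batf lacks the long activating domains of Fos and, with a Jun protein, binds DNA together with Irf4 in T cells. In T cells the receptor and its costimulators induce Fos and Jun within minutes through MAP kinases, and AP-1 then binds beside NFAT at cytokine genes. NFAT acting without AP-1 is known from T cells that become unresponsive or exhausted. The same early genes are also induced by handling and stress of cells.

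The 250 bases before the start site are shown for Fos, Jun, Junb and Batf. They are genes of the Fos, Jun and Batf branches that were all higher in Villin-HA + CL4-TCR cells, and they show how different the starts of these genes are. The sequences are from RefSeq, build GRCm38.p6, run 5′ to 3′ along the gene's strand and end at the base before the start site. All 8 genes matched an entry. Capitals mark TGACGT, the first 6 bases of the cAMP response element, and TGACATCA, a variant of the AP-1 element.
Fos, chr12:85473640-85473889, plus strand: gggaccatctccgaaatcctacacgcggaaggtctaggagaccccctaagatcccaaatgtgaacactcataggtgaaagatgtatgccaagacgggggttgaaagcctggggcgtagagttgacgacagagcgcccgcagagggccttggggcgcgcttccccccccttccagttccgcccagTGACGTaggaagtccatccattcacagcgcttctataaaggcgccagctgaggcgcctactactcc
Jun, chr4:95052223-95052472, minus strand: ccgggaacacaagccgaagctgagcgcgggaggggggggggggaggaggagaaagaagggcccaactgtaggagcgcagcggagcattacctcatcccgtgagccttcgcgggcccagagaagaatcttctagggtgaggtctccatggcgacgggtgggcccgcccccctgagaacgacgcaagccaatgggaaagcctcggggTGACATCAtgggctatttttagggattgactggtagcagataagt
Junb, chr8:84978749-84978998, minus strand: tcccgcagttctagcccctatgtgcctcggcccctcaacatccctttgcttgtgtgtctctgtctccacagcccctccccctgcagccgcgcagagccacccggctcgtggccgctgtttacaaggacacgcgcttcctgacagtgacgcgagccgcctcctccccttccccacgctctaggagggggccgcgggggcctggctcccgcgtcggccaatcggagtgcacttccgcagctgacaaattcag
Batf, chr12:85686470-85686719, plus strand: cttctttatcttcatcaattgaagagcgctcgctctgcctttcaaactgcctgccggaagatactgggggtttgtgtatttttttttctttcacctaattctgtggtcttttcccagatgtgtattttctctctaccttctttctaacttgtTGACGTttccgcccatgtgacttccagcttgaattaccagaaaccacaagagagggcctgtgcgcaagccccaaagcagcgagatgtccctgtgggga
Both strands were searched. TGACGT was present in the windows of 3 of the 8 genes, Fos, Batf and Atf3, against 6.5% of 32536 different promoter windows of the same length. It stood at bases -66 to -61 before the start site of Fos and at -98 to -93 of Batf. TGACATCA was present in 1 of the 8, Jun, at -45 to -38, against 2.84% of all windows. The consensus AP-1 element TGANTCA was found in 0 of the 8 windows and in 6.73% of all, and the full element TGACGTCA, which contains TGACGT, in 0 of the 8 and in 1.56% of all. The CArG box, bound by serum response factor, was found in 0 of the 8 and in 1.48% of all. TATAAA was present in 1 of the 8, Fos, and in 12.3% of all. These are matches of letters within 250 bases and say nothing about binding or about sites farther away.

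Values are MAS5 signals on a linear scale, in which each array is scaled to the same trimmed mean of 150. Values under 31.7, the median of all values and here called the floor, were raised to it before log2. A gene counts as measured in a comparison where at least 1 of the 2 arrays lay above the floor, and it was called when the arrays differed by 2-fold or more. A fold against a value at the floor is a lower bound. No group has a replicate, so every difference is one between single arrays, no test is possible, and precision is limited by the number of arrays. The only available error is the disagreement between probe sets of one gene, an SD on the log2 scale of 0.43 between the VILLIN-HA/CL4-TCR array and the CL4-TCR array, of 0.65 between the Villin-HA + CL4-TCR array and the CL4-TCR array, and of 0.61 between the HA arrays.

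The arrays bore the transcripts of CD8 T cells. Of 9 CD8 T cell markers all 9 lay above the floor on each array, with summed signals of 14828, 16052 and 16252 on the VILLIN-HA/CL4-TCR, Villin-HA + CL4-TCR and CL4-TCR arrays. Cd8a, which encodes part of the CD8 co-receptor, had a signal of 2893, 3149 and 2714 in that order, and Cd4 lay below the floor on all 3. Control probe sets at both ends of the Gapdh transcript, a measure of RNA and labelling quality, had 3′ to 5′ ratios of 46.2, 3.35 and 18.4 in the same order, and those of Actb had 2.46, 1.8 and 1.98. Xist, which is transcribed in female cells, had signals of 2.5, 1339 and 5442.5, and the Y-linked gene Eif2s3y had 1496, 747 and 13.4, so sex and group cannot be told apart. The labels give no batch, and the part of RNA quality and of sex in the values below was not tested.

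Transcripts of other cell types were present at unequal levels. Of 13 skeletal muscle markers, 3 lay above the floor in VILLIN-HA/CL4-TCR cells, 12 in Villin-HA + CL4-TCR cells and 1 in CL4-TCR cells, with summed signals of 222.6, 6533 and 240.8. Neutrophil markers summed to 159.1, 1871 and 155.3 in the same order, with 1, 7 and 0 of 8 above the floor. Stromal and endothelial markers summed to 161.7, 995.9 and 164.7, with 1, 7 and 1 of 10 above it. Myeloid markers summed to 1629, 912.1 and 287.4, with 8, 8 and 5 of 11 above it. Markers of B and plasma cells summed to 606.9, 413.4 and 301.0, those of epithelium, in which Vil1 lay below the floor on every array, to 133.5, 224.2 and 184.8, those of CD4 T cells to 51.6, 46.6 and 74.0, and those of erythroid cells to 9.2, 70.0 and 33.9. Of 9 housekeeping genes, 1 was higher in VILLIN-HA/CL4-TCR cells than in CL4-TCR cells and 0 were higher in Villin-HA + CL4-TCR cells, and 0 were lower in either. The 1 gene was Pgk1, a glycolysis enzyme gene, with a log2 difference of 1.15, and 0.63 and 1.60 by its other probe sets. In Villin-HA + CL4-TCR cells Pgk1 had 0.99, just short of 2-fold, and its other probe sets had 1.49 and 1.91. Skeletal muscle, neutrophil and stromal transcripts were thus highest on the array on which most AP-1 genes were highest, and their part in the AP-1 values was not tested. The summed myeloid signal was highest in VILLIN-HA/CL4-TCR cells, but its markers were mixed. Their median signal was 44.3 in VILLIN-HA/CL4-TCR cells, 51.9 in Villin-HA + CL4-TCR cells and 25.3 in CL4-TCR cells. Of 10 measured between the HA arrays, 3 were higher in VILLIN-HA/CL4-TCR cells (Lyz2, Csf1r, C1qb) and 1 lower (Cd68). Among those not called, C1qa and C1qc were higher there, and Adgre1, Tyrobp, Fcer1g and Cd14 lower. Lyz2, the lysozyme gene of myeloid cells, had a signal of 817.3 in VILLIN-HA/CL4-TCR cells and 312.2 in Villin-HA + CL4-TCR cells, against 84.5 in CL4-TCR cells. Csf1r, a growth factor receptor gene of macrophages, had 384.1 and 125.0, against 40.9 in CL4-TCR cells. For VILLIN-HA/CL4-TCR minus CL4-TCR these are log2 differences of 3.27 for Lyz2 and 3.23 for Csf1r, with 1.72 and 0.33 by the other Csf1r probe sets. These myeloid genes were thus higher in the comparison in which Fos was higher, and their part in the Fos values was not tested. In such bulk samples a change in the share of a cell type and a change in RNA per cell cannot be told apart.

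**Figure D1:**
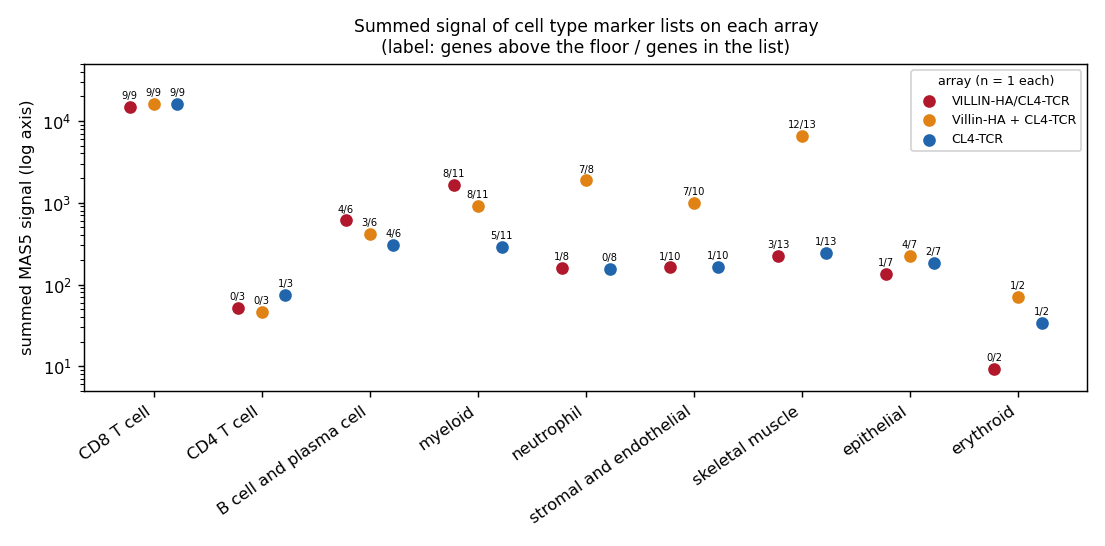
Summed MAS5 signal (log axis) of 9 marker lists on the VILLIN-HA/CL4-TCR, Villin-HA + CL4-TCR and CL4-TCR arrays, 1 point per array, with the number of genes above the floor written over each point. CD8 T cell markers were within 14828 to 16252 on all arrays, while skeletal muscle markers reached 6533 in Villin-HA + CL4-TCR cells against 222.6 and 240.8 on the other arrays.

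Fos was the AP-1 gene with the widest spread over the arrays. Fos encodes c-Fos, which pairs with Jun proteins. Its probe set had a signal of 987.5 in VILLIN-HA/CL4-TCR cells and 4555 in Villin-HA + CL4-TCR cells, against 64.8 in CL4-TCR cells. All 3 values lay above the floor, so none of the differences is a bound. Fos was 15.2-fold higher in VILLIN-HA/CL4-TCR cells than in CL4-TCR cells (log2 difference 3.93) and 70.3-fold higher in Villin-HA + CL4-TCR cells (6.14). Between the HA arrays it was 4.61-fold lower in VILLIN-HA/CL4-TCR cells (-2.21).

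Fosb and Fosl2 were high in Villin-HA + CL4-TCR cells alone. Fosb, an early-induced Fos protein, had a signal of 23.7 in VILLIN-HA/CL4-TCR cells and 206.4 in Villin-HA + CL4-TCR cells, against 25.4 in CL4-TCR cells. It lay below the floor in both other groups, and Villin-HA + CL4-TCR cells were at least 6.51-fold above each of them. Fosl2 encodes Fra-2, a Fos protein without the activating domain of c-Fos. Its probe set of higher signal had 45.2 in VILLIN-HA/CL4-TCR cells and 230.3 in Villin-HA + CL4-TCR cells, against 48.0 in CL4-TCR cells. Its other probe set had 35.1 and 88.5, against 63.3 in CL4-TCR cells. The probe sets shared the order of the HA arrays and disagreed on the size: the log2 difference of Villin-HA + CL4-TCR minus CL4-TCR was 2.26 by the first and 0.48 by the second, which is short of 2-fold. For VILLIN-HA/CL4-TCR minus CL4-TCR they gave -0.09 and -0.85, neither of them 2-fold.

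Among the Jun genes, Jun and Junb followed the pattern of Fosb. Jun encodes c-Jun, the main partner of c-Fos. Its first probe set had a signal of 22.4 in VILLIN-HA/CL4-TCR cells and 450 in Villin-HA + CL4-TCR cells, against 27.9 in CL4-TCR cells. Its second had 29.2 and 250.8, against 6.5 in CL4-TCR cells. Both probe sets lay above the floor in Villin-HA + CL4-TCR cells and below it on the others, so Jun was at least 14.2-fold higher there than in CL4-TCR cells by one and at least 7.91-fold by the other. No fold can be given between VILLIN-HA/CL4-TCR and CL4-TCR, since both lay below the floor.

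Junb, a Jun protein that is abundant in activated T cells, had a signal of 103.2 in VILLIN-HA/CL4-TCR cells and 798.9 in Villin-HA + CL4-TCR cells, against 79.7 in CL4-TCR cells. All 3 were above the floor. Villin-HA + CL4-TCR cells were 10.02-fold above CL4-TCR cells (log2 difference 3.33), and VILLIN-HA/CL4-TCR minus CL4-TCR was 0.37.

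Jund, a Jun protein made in most resting cells, showed no 2-fold difference. Its probe set of higher signal had 3437 in VILLIN-HA/CL4-TCR cells and 2424 in Villin-HA + CL4-TCR cells, against 2063 in CL4-TCR cells. It was the 1 gene of the 8 whose highest signal lay in VILLIN-HA/CL4-TCR cells. Relative to CL4-TCR cells the log2 difference was 0.74 in VILLIN-HA/CL4-TCR cells and 0.23 in Villin-HA + CL4-TCR cells. The other Jund probe set had signals of 17.0 and 38.5, against 26.5 in CL4-TCR cells, near or below the floor, and its log2 differences were within 0.28 of 0.

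The remaining members differed from each other. Atf3, a stress-induced factor that can repress its targets, had a signal of 20.7 in VILLIN-HA/CL4-TCR cells and 35.5 in Villin-HA + CL4-TCR cells, against 27.1 in CL4-TCR cells. Only the Villin-HA + CL4-TCR value lay above the floor, by a log2 difference of 0.16, so no change of Atf3 was detectable. Batf, the partner of Jun proteins at sites shared with Irf4, had a signal of 203.2 in VILLIN-HA/CL4-TCR cells and 545.6 in Villin-HA + CL4-TCR cells, against 165.4 in CL4-TCR cells. It was 3.30-fold higher in Villin-HA + CL4-TCR cells (log2 difference 1.72), and VILLIN-HA/CL4-TCR minus CL4-TCR was 0.30.

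**Figure D2:**
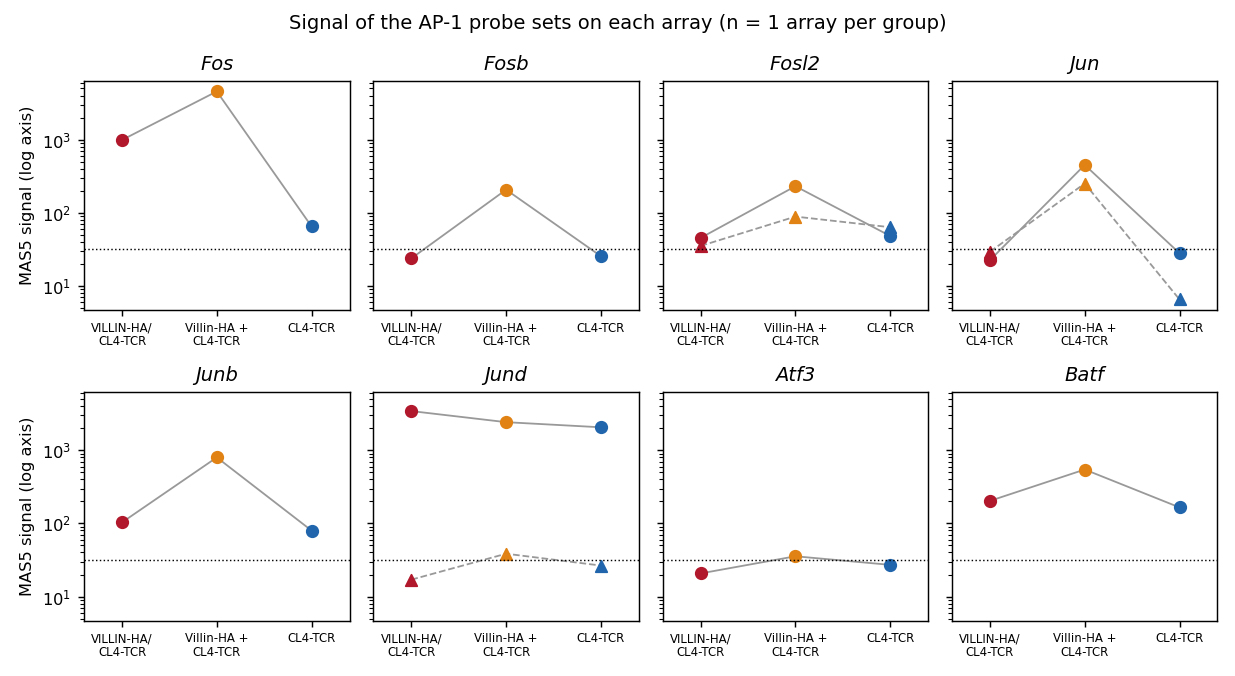
MAS5 signal (log axis) of the 11 AP-1 probe sets on the VILLIN-HA/CL4-TCR, Villin-HA + CL4-TCR and CL4-TCR arrays, 1 array per group. Circles with solid lines are the probe set of highest mean signal of each gene, triangles with dashed lines the other one, and the dotted line is the floor of 31.7. Fos stands at 987.5 and 4555 on the HA arrays against 64.8, Fosb, Jun and Junb peak in Villin-HA + CL4-TCR cells alone, and Jund lies between 2063 and 3437 by its circles.

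Setting VILLIN-HA/CL4-TCR against CL4-TCR cells asks what the presence of the antigen in the gut changes in CD8 T cells that recognise it. Fos was the 1 member of 5 measured that was higher, and 0 were lower. Over all 11260 genes measured in this comparison, 7.43% were higher and 6.63% lower. The other measured members had log2 differences of -0.09 (Fosl2), 0.30 (Batf), 0.37 (Junb) and 0.74 (Jund), of which Fosl2, Batf and Junb are smaller than the SD between probe sets. Fosb, Jun and Atf3 lay below the floor on both arrays and gave no fold. The median over the 5 measured members was 0.37, against -0.04 over all genes. A difference as high as that of Fos or higher was found in 0.249% of the genes measured, which is 28 genes.

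Villin-HA + CL4-TCR cells, the other HA-exposed population, were likewise set against CL4-TCR cells. All 8 members were measured, 6 of them were higher and 0 lower, and over all 12196 genes measured 11.9% were higher and 9.53% lower. The higher members were Fos, Fosb, Fosl2, Jun, Junb and Batf, with log2 differences of 1.72 (Batf) to 6.14 (Fos), and those of Fosb and Jun are lower bounds. Jund and Atf3 were not counted. Fosb, Jun and Atf3 count as measured only because of the array on which they are high. The median over the members was 2.48, against 0.06 over all genes. Differences at least as high were found in 0.0738% of all measured genes for Fos, 0.517% for Jun, 0.877% for Junb, 1.69% for Fosb, 2.54% for Fosl2 and 4.35% for Batf.

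In the direct comparison of the HA groups, VILLIN-HA/CL4-TCR cells had lower values than Villin-HA + CL4-TCR cells for 6 of the 8 members and higher values for 0, where 8.95% of all 12081 measured genes were lower and 6.13% higher. These are the same 6 genes as above, and this comparison shares an array with each of the other comparisons, so it is not separate evidence. The log2 differences were -3.83 for Jun, at least that size because of the floor, -2.95 for Junb, -2.70 for Fosb (also a bound), -2.35 for Fosl2, -2.21 for Fos and -1.42 for Batf. The second probe sets of Jun and Fosl2 were lower too, with log2 differences of -2.98 (a bound) and -1.33. Jund had 0.50 and Atf3 -0.16.

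**Figure D3:**
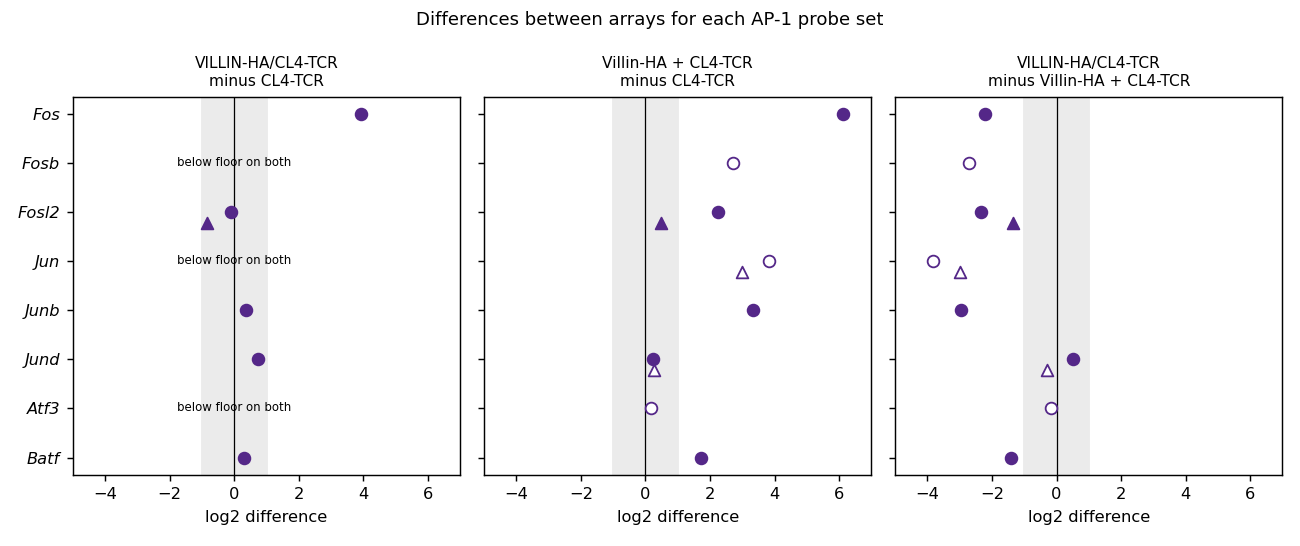
Log2 difference of each AP-1 probe set in the 3 comparisons. Filled symbols are measured on both arrays, open symbols are lower bounds in size, triangles are second probe sets, and the grey band marks less than 2-fold. VILLIN-HA/CL4-TCR minus CL4-TCR has Fos at 3.93 as its 1 point outside the band, and Villin-HA + CL4-TCR minus CL4-TCR has 6 genes to the right of it.

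**Figure D4:**
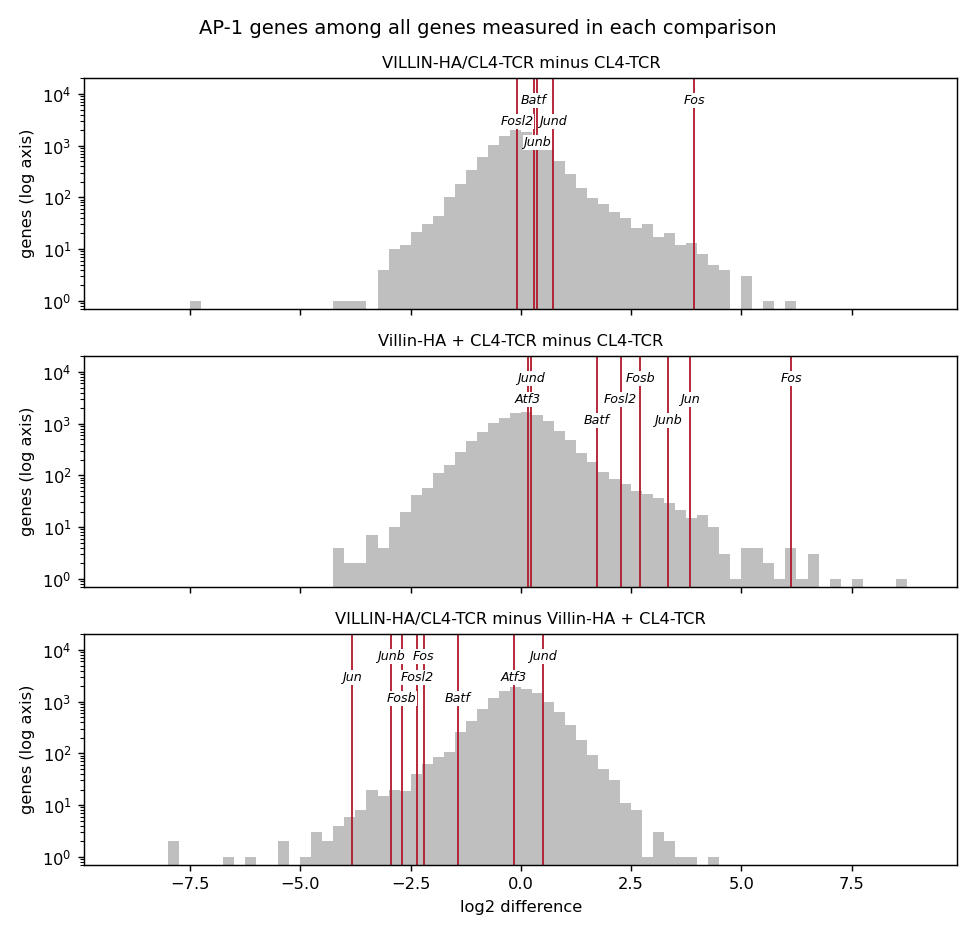
Number of genes (log axis) by log2 difference in each comparison, grey, with the AP-1 genes as red lines. Fos lies in the right tail at 3.93 in VILLIN-HA/CL4-TCR cells and 6.14 in Villin-HA + CL4-TCR cells against CL4-TCR, and Jun, Junb, Fosb, Fosl2, Fos and Batf lie between -3.83 and -1.42 between the HA arrays.

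The pathway around AP-1 was read from lists of its other parts. In the MAP kinase route that induces Fos and Jun, few genes passed 2-fold. Of 16 measured genes, 2 were higher and 1 lower in VILLIN-HA/CL4-TCR cells, and 1 was higher and 0 lower in Villin-HA + CL4-TCR cells, each against CL4-TCR. The higher shares, 12.5% and 6.25%, lie near the 7.43% and 11.9% of all genes in these comparisons. The list's median log2 difference was -0.03 in VILLIN-HA/CL4-TCR cells, against -0.04 over all genes, and -0.50 in Villin-HA + CL4-TCR cells, against 0.06 over all genes. Map3k8, which encodes the kinase Tpl2 that activates the ERK route, had signals of 231.9 and 266.6, against 61.7 in CL4-TCR cells. This made Map3k8 3.76-fold and 4.32-fold higher on the HA arrays. The others were Elk3, a partner of serum response factor, with a log2 difference of 1.15 in VILLIN-HA/CL4-TCR cells, and Mef2d, with -1.19. The other probe sets of Elk3 had log2 differences of -0.34 to 0.83 and those of Mef2d of -0.92 and -0.56, short of 2-fold. Rasgrp1, which links the T cell receptor to Ras, had a log2 difference of -0.94 in Villin-HA + CL4-TCR cells, and Nras, a Ras gene, had -0.87.

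Among the DNA-binding partners of AP-1, Irf4 and Irf8 were highest in VILLIN-HA/CL4-TCR cells. Irf4, the partner of Batf, had a signal of 886.9 in VILLIN-HA/CL4-TCR cells and 338.8 in Villin-HA + CL4-TCR cells, against 49.6 in CL4-TCR cells. It was thus higher on both HA arrays than in CL4-TCR cells, by 17.9-fold and 6.83-fold, and 2.62-fold higher in VILLIN-HA/CL4-TCR cells than in Villin-HA + CL4-TCR cells, where Batf was 2.69-fold lower. The other Irf4 probe set had signals of 26.6, 41.2 and 30.6 on the VILLIN-HA/CL4-TCR, Villin-HA + CL4-TCR and CL4-TCR arrays, near the floor. Irf8, a relative of Irf4, had 837.7 and 297.5, against 107.6 in CL4-TCR cells, and its other probe set had log2 differences of 0.59 and 0.88, short of 2-fold. The myeloid genes Lyz2, Csf1r and C1qb, by their probe sets of highest mean signal, had the same order of the 3 arrays as Irf4 and Irf8. The myeloid markers Cd68, Adgre1, Tyrobp, Fcer1g and Cd14 had the reverse order of the HA arrays. The other Csf1r probe sets had log2 differences of 0.09 and -0.60 between the HA arrays. The part of other cell types in the Irf4 and Irf8 values was not tested. Of 8 measured partners, 2 were higher (Irf4, Irf8) and 2 lower (Nfatc2, Runx1) in VILLIN-HA/CL4-TCR cells, and 3 were higher (Nfatc1, Irf4, Irf8) and 0 lower in Villin-HA + CL4-TCR cells. Over all genes 7.43% were higher in VILLIN-HA/CL4-TCR cells and 11.9% in Villin-HA + CL4-TCR cells. Between the HA arrays Irf4 and Irf8 were the 2 higher partners and 0 were lower. Nfatc1, an NFAT protein induced in activated T cells, had a log2 difference of 0.91 in VILLIN-HA/CL4-TCR cells and 1.16 in Villin-HA + CL4-TCR cells, and its 5 probe sets ranged from -0.51 to 2.05 in the second of these comparisons. Nfatc2, the NFAT protein of resting T cells, had -1.30 and -0.65. The probe sets of Runx1 ranged from -1.25 to 0.35 in the first of these comparisons.

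Genes of phosphatases, RNA decay factors and ubiquitin ligases that restrain AP-1 or the signals that induce it included several that were higher with Fos. Of 12 measured, Dusp1, Dusp4 and Dusp5 were higher and 0 lower on each HA array against CL4-TCR, a share of 25% where 7.43% of all genes were higher in VILLIN-HA/CL4-TCR cells and 11.9% in Villin-HA + CL4-TCR cells. These 3 encode phosphatases that switch off MAP kinases. Dusp1 had a signal of 187.0 in VILLIN-HA/CL4-TCR cells and 2596 in Villin-HA + CL4-TCR cells, against 60.1 in CL4-TCR cells. Dusp4 had 223.1 and 599.5, against 4.6 in CL4-TCR cells, and Dusp5 had 119.4 and 357.7, against 26.9. Dusp4 and Dusp5 lay below the floor in CL4-TCR cells and count as measured only through the HA arrays. Like Fos, each of the 3 phosphatase genes was higher in Villin-HA + CL4-TCR cells than in VILLIN-HA/CL4-TCR cells.

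Other immediate-early genes did not all follow Fos. Of 20 measured, 8 were higher and 3 lower in VILLIN-HA/CL4-TCR cells than in CL4-TCR cells (median log2 difference 0.12), and of 22 measured, 12 were higher and 0 lower in Villin-HA + CL4-TCR cells (median 1.22). These are higher shares of 40% and 54.5%, against 7.43% and 11.9% over all genes, whose medians were -0.04 and 0.06. Of the higher genes, Ier3 and Nr4a2 lay below the floor in CL4-TCR cells, as did Klf4 and Hspa1a, which were higher in Villin-HA + CL4-TCR cells. They count as measured only through an array on which they are high. This list shares Dusp1 and the decay factor gene Zfp36 with the one before. Between the HA arrays, 3 were higher in VILLIN-HA/CL4-TCR cells and 11 lower. The 3 were Egr1, Egr2 and Egr3, which encode zinc finger factors induced by the T cell receptor. Egr2 had a signal of 1693 in VILLIN-HA/CL4-TCR cells and 206.1 in Villin-HA + CL4-TCR cells, against 217.3 in CL4-TCR cells, and its other probe set gave the same order of the HA arrays, with a log2 difference of 2.44 between them. Egr3 had 2.08 between the HA arrays, but its other probe set, of lower signal, had -0.47. Nr4a1, a nuclear receptor gene induced by T cell receptor signals, had 1608 and 1105, against 106.8 in CL4-TCR cells. Klf4, a factor that restrains T cell division, followed Jun: it had 14.5 and 481.3, against 21.2 in CL4-TCR cells. Thus Egr1, Egr2 and Egr3 stood higher in VILLIN-HA/CL4-TCR cells, and 6 of the 8 AP-1 genes in Villin-HA + CL4-TCR cells. Nr4a2, Dusp1 and Ier2, among the 11 lower genes, went with these 6 AP-1 genes. Their log2 differences between the HA arrays were -2.45, -3.80 and -1.36. Those of Nr4a1 and Nr4a3 were 0.54 and 0.93, short of 2-fold. The contrast is one of the Egr genes, and 1 array per group allows no test of it.

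Among other basic leucine zipper genes, 1 of 19 measured was higher (Maf) and 1 lower (Mafk) in VILLIN-HA/CL4-TCR cells than in CL4-TCR cells. In Villin-HA + CL4-TCR cells 6 of 21 were higher and 5 lower, with a median log2 difference of 0.42. Over all genes 7.43% were higher and 6.63% lower in the first of these comparisons, and 11.9% and 9.53% in the second, with a median of 0.06. Maf, a factor known from interleukin 10 producing T cells, had signals of 110.6 and 223.8, against 25.8 in CL4-TCR cells. Nfil3 had 2.6 and 140.1, against 2.8 in CL4-TCR cells. Of the higher genes, Maf, Maff and Nfil3 lay below the floor in CL4-TCR cells and count as measured only through an array on which they are high. Bach2, which represses AP-1 sites in T cells and keeps them in a naive or memory state, had 1369 and 275.7, against 1124 in CL4-TCR cells. Bach2 was thus 4.08-fold lower in Villin-HA + CL4-TCR cells than in CL4-TCR cells, where 6 AP-1 genes were higher, and its other probe sets had log2 differences of -1.45 and 0.23. The other lower genes were Atf7, Bach1, Nfe2l2 and Creb1, with log2 differences of -1.13 (Creb1) to -1.79 (Nfe2l2). The other measured probe sets of Creb1 had -0.58 to 0.59, short of 2-fold, and that of Nfe2l2 had 0.08.

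Genes listed as known AP-1 targets were higher on both HA arrays for many members. The list was chosen with earlier results of these data known, so its counts are a description only. Of 14 measured, 8 were higher and 1 lower in VILLIN-HA/CL4-TCR cells than in CL4-TCR cells, with a median log2 difference of 1.38. Of 19 measured, 13 were higher and 0 lower in Villin-HA + CL4-TCR cells, with a median of 1.32. Over all genes 7.43% were higher and 6.63% lower in the first comparison (median -0.04), and 11.9% and 9.53% in the second (median 0.06). Of the higher genes, Ccl3, Xcl1, Il2ra and Ctla4 in both comparisons lay below the floor in CL4-TCR cells. So did Il2, Ifng, Fasl, Gzmb and Havcr2 in the second. These genes count as measured only through the array on which they are high, so they could not be called lower. Xcl1, a chemokine gene, had signals of 1068 and 295.3, against 2.6 in CL4-TCR cells. Ctla4, an inhibitory receptor gene, had 449.3 and 4180, against 16.9 in CL4-TCR cells. Ifng, the gene of interferon gamma, had 58.7 and 631.5, against 4.2 in CL4-TCR cells. Gzmb, a granule protease gene, had 49.3 and 12078, against 14.6. The order of the HA arrays thus differed between these genes: Xcl1 was higher and Ctla4, Ifng and Gzmb lower in VILLIN-HA/CL4-TCR cells than in Villin-HA + CL4-TCR cells. Cd44, an adhesion receptor of activated T cells, was similar on the HA arrays, at 1417 and 1223, against 320.7 in CL4-TCR cells.

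**Figure D5:**
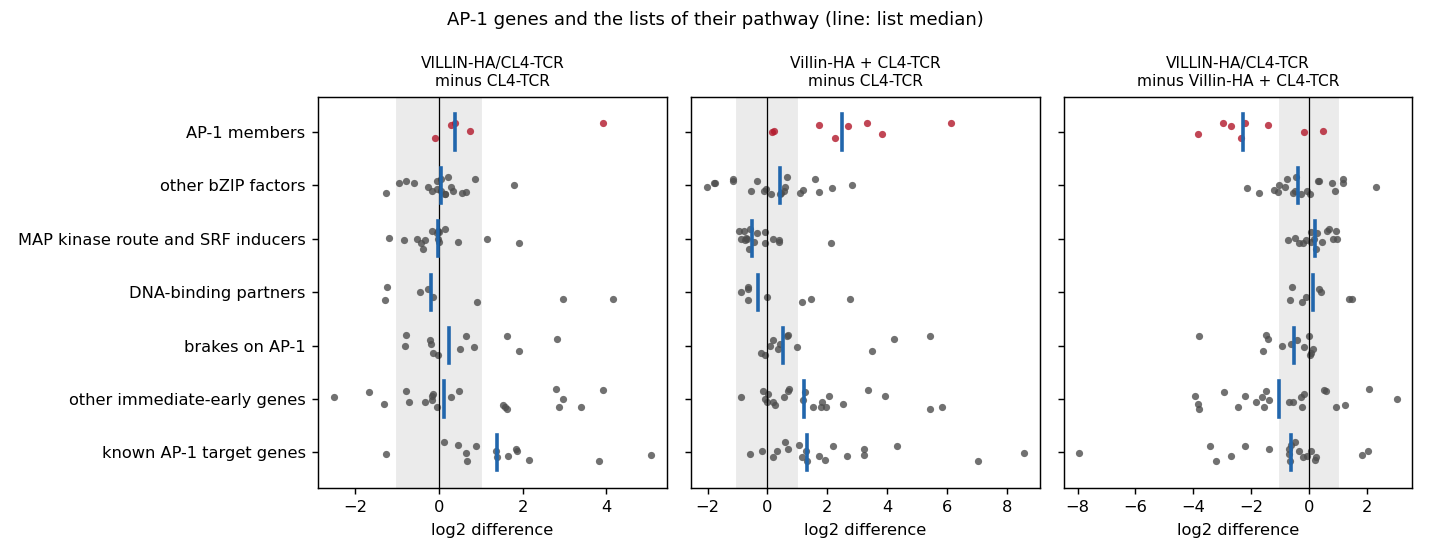
Log2 differences of the AP-1 genes (red) and of the genes of 6 lists of their pathway (grey) in the 3 comparisons, 1 point per measured gene, with the list median as a blue line and less than 2-fold as a grey band. AP-1 genes have medians of 0.37 in VILLIN-HA/CL4-TCR cells and 2.48 in Villin-HA + CL4-TCR cells against CL4-TCR, while the MAP kinase list has -0.03 and -0.50.

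Over the 3 arrays, the genes nearest to Fos among 10500 searched were Nr4a2, Tox2, Lgals1, Lgals3 and Ctla4. Nearness is the Euclidean distance between log2 signals centred on each gene's mean, and it was 0.379 for Nr4a2 and 0.787 for Ctla4. Nr4a2 had signals of 333.3 and 1824, against 21.2 in CL4-TCR cells, but of its 6 probe sets 1 had a log2 difference of -0.25 for Villin-HA + CL4-TCR minus CL4-TCR. Tox2 was near Fos by a probe set that can match several transcripts, and by its other probe set it had 0.84 in that comparison. Lgals1 and Lgals3 encode galectins. The genes nearest to Batf were Akap12, Sbsn, Hdac6, Ehd4 and Rars, at distances of 0.014 to 0.082. Sbsn too was near by a probe set that can match several transcripts, and it lay below the floor in CL4-TCR cells. With such probe sets left out, Sbsn had 1.33 for Villin-HA + CL4-TCR minus CL4-TCR. With 3 arrays such closeness is a description of these arrays only.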

How the data were processed

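Total RNA of CD8 T cells, extracted with RNeasy, was labelled with biotin from 6 µg and hybridised to 1 array for each of 3 groups, per the labels' protocols. The deposited values are MAS5 signal intensities, per the submitters' processing notes, which name no version; no source used here gives background settings, and detection calls were not used. MAS5 scales each array, so these values cannot show a shift common to most transcripts. Probe sets were named through the platform annotation: of 45101, 34958 had 1 symbol, 932 several and 9211 none. Symbols were updated by Entrez identifier to the GRCm38.p6 RefSeq table, in which 34754 matched. A gene was represented by its probe set of highest mean signal, and all probe sets of the AP-1 genes are given. Signals were raised to a floor of 31.7, the 50th percentile of all values, and compared on the log2 scale with a limit of 1. With 1 array per group no test was made. The members and the 16 other gene lists were chosen with earlier results of these data known. Other genes were named by a rule: the up to 3 largest differences of each list in each comparison with CL4-TCR, and the 5 genes nearest to Fos and to Batf. Genes that make up a count of 5 or fewer were named after their values were seen. The steps that make the calls were checked on simulated signals, which says nothing about the spread between animals. Alternatives were floors at the 35th and 65th percentile, a pseudocount of 32, scaling to equal medians, quantile normalization, the median over probe sets, and leaving out probe sets with IDs ending in _s_at or _x_at. Python 3.11.15, pandas 2.3.3 and numpy 2.4.6 were used.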

Additional observations from a re-analysis of the deposited data

How the results depend on the processing

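The counts of AP-1 genes past 2-fold were the same under all 7 alternatives: 1 in VILLIN-HA/CL4-TCR cells and 6 in Villin-HA + CL4-TCR cells, each against CL4-TCR cells, and 6 between the HA arrays. No AP-1 probe set has an ID ending in _s_at or _x_at, so leaving such probe sets out could not change an AP-1 value. The median over probe sets could not change the 5 genes with 1 probe set. Fos ranged from 3.40 to 3.99 in the first comparison and from 5.57 to 6.14 in the second on the log2 scale, Junb from 2.90 to 3.37, Batf from 1.52 to 1.80 and Fosl2 from 1.37, by the median over its probe sets, to 2.26 in the second. Fosb (1.59 to 3.02) and Jun (2.71 to 4.01) moved with the floor, since their CL4-TCR signals lie below it. With the floor at the 35th percentile, Fosb, Jun and Atf3 had log2 differences of -0.10, -0.32 and -0.39 in the first comparison. With the floor at the 65th percentile Atf3 gave no value. Of 144 values of single AP-1 genes under alternatives, 135 moved by less than the SD between probe sets. Both counts include the values that could not change. Over all genes, 2385 instead of 1583 passed 2-fold for VILLIN-HA/CL4-TCR minus CL4-TCR with the floor at the 35th percentile, and between the HA arrays 2993 did, or 1182 with the floor at the 65th, instead of 1822. With arrays scaled to equal medians, the share of calls that were higher was 38.2% instead of 55.6% in the second comparison and 67.3% instead of 40.7% between the HA arrays, and the median of all genes was -0.14 instead of 0.06 and 0.19 instead of -0.06. No paired analysis was possible because each group has 1 array. Signals near the floor, as for Atf3 and the second probe set of Jund, limit what can be seen, and no detection calls were used.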

Other observations

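Fos and Batf lie close together on chromosome 12, and in the RefSeq gene order the 1 protein-coding gene between them is Jdp2, which encodes a further AP-1 protein that pairs with Jun proteins. Jdp2 had a signal of 59.8 in VILLIN-HA/CL4-TCR cells and 126.2 in Villin-HA + CL4-TCR cells, against 38.0 in CL4-TCR cells. The order of the 3 arrays was the same for all 3 of these neighbours, with log2 differences for Villin-HA + CL4-TCR minus CL4-TCR of 6.14 for Fos, 1.73 for Jdp2 and 1.72 for Batf. For VILLIN-HA/CL4-TCR minus CL4-TCR, Batf had 0.30, smaller than the SD between probe sets of 0.43, so its order there is not resolved. The share of all genes with this order was not counted. The other Jdp2 probe set lay below the floor on every array. Fosl1 and Batf3, the genes of Fra-1 and of a Batf relative needed for cross-presenting dendritic cells, lay below the floor on all 3 arrays, and Batf2 had signals of 31.0 and 9.5, against 32.6 in CL4-TCR cells.

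The heat shock genes Hspa1b and Hspa1a, which stressed cells induce, were highest in Villin-HA + CL4-TCR cells, as Jun and Fosb were. Hspa1b had a signal of 46.2 in VILLIN-HA/CL4-TCR cells and 352.2 in Villin-HA + CL4-TCR cells, against 148.3 in CL4-TCR cells. Its log2 difference was -1.68 in VILLIN-HA/CL4-TCR cells relative to CL4-TCR cells, with -0.22 and -0.95 by its other probe sets. In Villin-HA + CL4-TCR cells each of its probe sets was higher than in CL4-TCR cells, with 1.58 and 1.89 by the other probe sets. Hspa1a had 20.6 and 113.2, against 26.8 in CL4-TCR cells. The part of cell stress in the AP-1 values was not tested. Both were named after their values were seen. These 2 genes are near-identical copies, so their values are uncertain.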
